A study of Saccharomyces cerevisiae with 4 samples.

Results

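The genes described here are the phosphate genes of budding yeast: the secreted acid phosphatase genes PHO3, PHO5, PHO11 and PHO12, the phosphate transporter gene PHO84, and the regulator genes PHO4, PHO81 and PHO85. Members were taken as the probe sets that name 1 of these 8 genes alone in the table of the array's genes, of 6504 probe sets that name 1 gene and 5656 genes with such a probe set. That rule found 6 probe sets for 6 genes. PHO11 and PHO12 have no value of their own, because the array reads both through 1 shared probe set, whose reading is given once below and counted for neither. The set was put together around the pattern of PHO3, which had been seen in these same intensities, so all values of the members are a description and were not tested.

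Phosphate supply in yeast is sensed by a short kinase pathway. When phosphate is plentiful, the cyclin-dependent kinase Pho85 with its cyclin Pho80 phosphorylates the transcription factor Pho4 and keeps it out of the nucleus. When phosphate is scarce, the inhibitor Pho81 shuts the kinase off, and Pho4 with its partner Pho2 turns on PHO5, PHO84 and further targets. PHO3 is the exception among the acid phosphatases: it is made in phosphate-rich cells, is repressed by thiamine, and its product splits thiamine phosphates at the cell surface. All the acid phosphatases are glycoproteins that pass through the endoplasmic reticulum (ER) on their way out of the cell, and Pho84 enters the ER membrane before it reaches the plasma membrane.

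The arrays asked which transcripts change their amount or their load of ribosomes when dithiothreitol (DTT), a reductant that stops disulphide bonds from forming, unfolds proteins in the ER. Strain BY4741, labelled MATa with his3, leu2, met5 and ura3 deletions in every group, grew at 30 °C in rich medium of pH 5.4. At an OD600 of 0.5 the cultures were given water or DTT at 2 mM for 1 h. Cycloheximide at 0.1 mg/mL held ribosomes in place in both treatments, the lysis and gradient buffers held 0.5 mM DTT in both, and sucrose gradients of 15 to 60% parted polysomal RNA, loaded with several ribosomes, from the lighter sub-polysomal RNA. Water or DTT and the pair of gradient pools give 4 groups, each of 1 array (n = 1) that holds RNA pooled from 3 extracts. The samples give 5 µg of RNA for every group and the arrays were scaled, so a reading is a share of its pool and not an amount per cell. A lower share may mean fewer cells with the RNA, less RNA per cell or a changed pool, which cannot be told apart in such bulk pools.

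Intensities are linear and were scaled per array by the authors. A probe set counted as measured when it lay above a floor on every array, the floor being the 40th percentile of that array's probe sets, at 28.2 (sub-polysomal) and 17.6 (polysomal) for control and at 22.6 and 15.9 for DTT. All 6 members passed, as did 3923 genes in all. Comparisons are log2 differences between arrays that were first centred, each on its measured probe sets' median. A polysomal to sub-polysomal ratio above 0 means that a gene lay higher against the polysomal array's median than against the sub-polysomal one's. The median ratio of all measured genes was -0.030 in control and 0.080 in treated cells. No difference could be set against replicates. As a yardstick, genes read by several probe sets give an SD (log2) between their probe sets. For the change with DTT it was 0.45 (sub-polysomal) and 0.41 (polysomal). It was 0.41 in control and 0.32 in treated cells for the ratio of fractions, and 0.43 for the difference between both ratios. Changes past 2-fold are counted as called, beside the share of all measured genes that are called.

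Treatment and strain were read from a few other genes. The ER chaperone gene KAR2 was higher with DTT in both fractions (log2 change 0.92 and 0.76), and HAC1, whose product switches on the response to unfolded ER proteins, was higher too (1.33 and 2.60). Mating type a genes were above the floor on all 4 arrays, and of the alpha genes only MF(ALPHA)1 passed it, on 1 array. LEU2 and URA3 were below the floor on all 4 arrays, HIS3 was above it on all 4, and so was MET5, while MET17, which the label does not list, was below it on all 4. The control sub-polysomal array ranked probe sets less like the other arrays did (Spearman rho 0.885 to 0.920 in its pairs, 0.922 to 0.959 in the pairs without it). Its readings enter the sub-polysomal change, the control ratio and polysome association directly. Washing module and scan also differed from array to array, so run and group cannot be told apart.

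Across the members, PHO3, PHO5 and PHO84 read lower in polysomal RNA with DTT, while no regulator was past 2-fold lower in either fraction. In polysomal RNA, 3 of the 6 members were at least 2-fold lower with DTT (PHO3, PHO5 and PHO84) and 0 were 2-fold higher, where 7.04% of all measured genes were 2-fold lower and 4.33% 2-fold higher. In sub-polysomal RNA, 2 of the 6 were 2-fold lower (PHO3 and PHO84) and 1 was higher (PHO85), where 11.1% of all genes were lower and 5.68% higher. Because the members were chosen from this pattern, nothing is read from these counts against the shares. Over the 6, the median change was -0.51 for the sub-polysomal and -0.79 for the polysomal pools, and over all measured genes -0.20 and -0.10.

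PHO3 and PHO84 were at least 2-fold lower in both fractions, as were 4.61% of all measured genes. All of PHO3, PHO5, PHO84 and PHO4 were below 0 in both fractions, as were 48.8% of all genes.

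**Figure D1:**
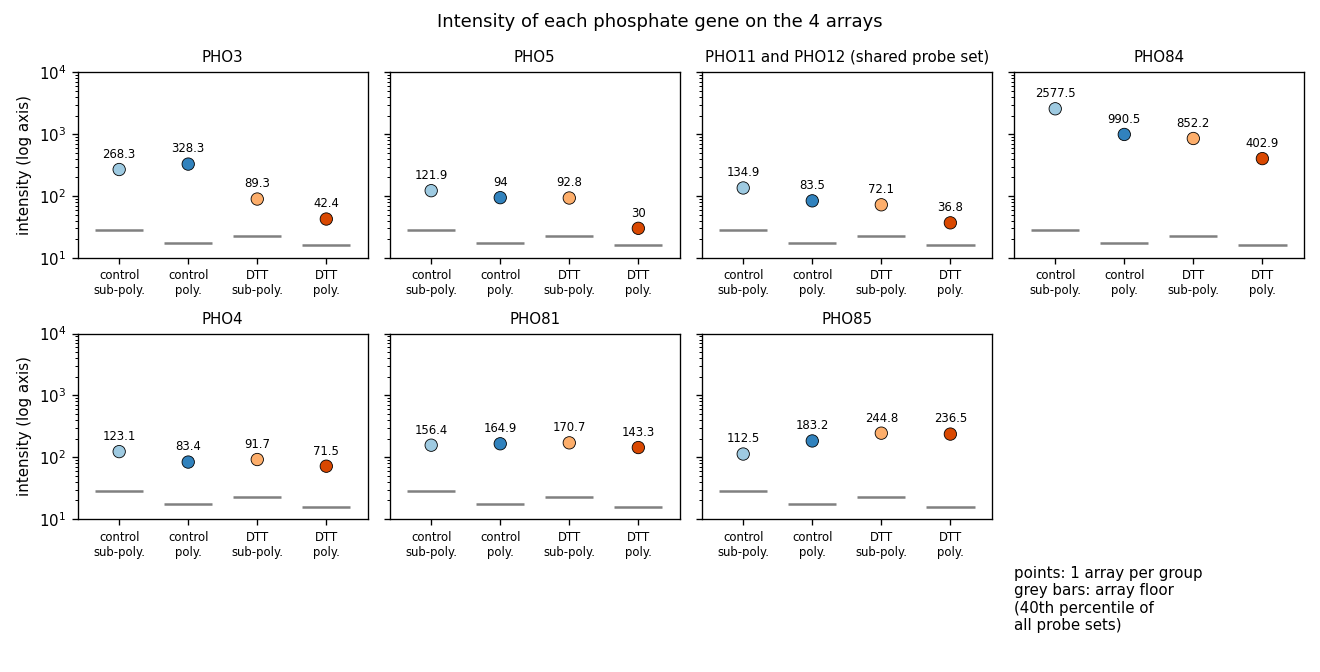
Intensity (log axis) of each phosphate gene on the 4 arrays, 1 point per array, with the array's floor as a grey bar. PHO3 goes from 328.3 to 42.4 in polysomal RNA and PHO84 from 990.5 to 402.9, while PHO81 stays between 143.3 and 170.7 on all 4 arrays.

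PHO3, the acid phosphatase gene of phosphate-rich cells, read 268.3 in the sub-polysomal and 328.3 in the polysomal control pool, and 89.3 and 42.4 in the matching DTT pools. Both control arrays lay above both DTT arrays, and the order of the fractions turned round: polysomal RNA read higher than sub-polysomal RNA in control cells and lower in treated ones. After centring, PHO3 was 7.91-fold lower with DTT in polysomal RNA (log2 -2.98) and 3.22-fold lower in sub-polysomal RNA (-1.69). These are 7.33 and 3.75 times the SD between probe sets. On the deposited scale, with no centring, the polysomal intensities differ 7.74-fold.

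The polysomal decrease of PHO3 was the largest of all 3923 measured genes. It stayed the largest under each of the other scalings, with plain probe sets only and with the brightest probe set per gene. It also did so without the control sub-polysomal array, which enters the polysomal change only through the probe sets counted as measured. It ranked 2nd with a lower floor (20th percentile), 3rd with a pseudocount and no floor, and 45th with no floor, where YGL138C, which is not measured above the floor on all arrays, was lowest (-5.89). At the 60th percentile PHO3 is not measured, since the DTT polysomal reading of 42.4 lies below it, although that reading is 2.67 times the floor used here.

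**Figure D2:**
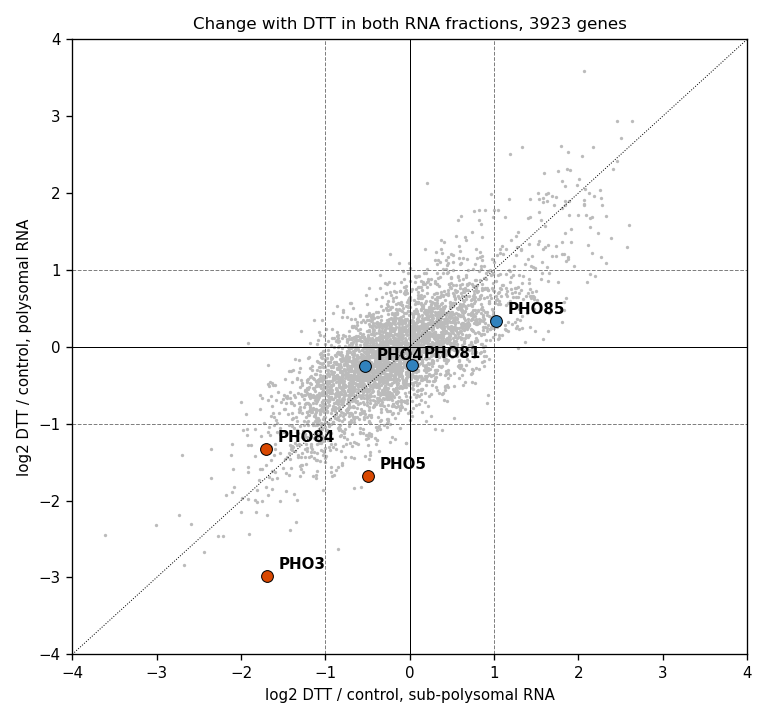
Change with DTT (log2) in sub-polysomal RNA on the x axis and polysomal RNA on the y axis, 1 grey point per measured gene, members in colour (orange for the phosphatases and the transporter, blue for the regulators); dashed lines mark 2-fold and the dotted line equal change. PHO3 lies lowest on the y axis at -2.98, and PHO3 and PHO5 lie below the dotted line.

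PHO5, the main acid phosphatase gene of phosphate-starved cells, read 121.9 in the sub-polysomal and 94.0 in the polysomal control pool, and 92.8 and 30.0 in the matching DTT pools. A single array stood out, the DTT polysomal one, while the other 3 lay close together. PHO5 was 3.20-fold lower with DTT in polysomal RNA (log2 -1.68, 4.12 times the probe set SD) and 1.41-fold lower in sub-polysomal RNA (-0.50, 1.10 times the SD). The low reading was 1.89 times its array's floor, nearer to it than that of any other member on any array. With a pseudocount of 16 the polysomal change of PHO5 was -1.20, and the gene is not measured when the floor is the 60th percentile.

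PHO3 and PHO5 are neighbours on chromosome II in the reference annotation. The genes on their outer sides were not past 2-fold in any comparison. TIM12, for a mitochondrial import protein, lies beside PHO3 and had changes of 0.31 in sub-polysomal and 0.32 in polysomal RNA. PBY1 lies beside PHO5 and had -0.68 and -0.47. PHO3 and PHO5 were each read by 1 plain probe set, the kind meant to match 1 transcript, but their coding sequences are closely related and no probe sequences were used here, so cross-reading between them was not tested.

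PHO11 and PHO12, nearly identical acid phosphatase genes near the ends of chromosomes I and VIII, shared a probe set that read 134.9 in the sub-polysomal and 83.5 in the polysomal control pool, and 72.1 and 36.8 in the DTT pools. Within each fraction the DTT reading was the lower one. The joint reading was 2.01-fold lower with DTT in sub-polysomal and 2.32-fold lower in polysomal RNA. Which gene gives this signal cannot be told from it. The sub-polysomal change was under 2-fold as deposited (-0.90), under loess scaling (-0.92) and under hybridisation control scaling (-0.94), and the last of these also put the polysomal one under it (-0.97).

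PHO84, the high-affinity phosphate transporter gene, read 2577.5 in the sub-polysomal and 990.5 in the polysomal control pool, and 852.2 and 402.9 in the DTT pools. It was at least 25.3 times the floor on every array. Treated readings lay below control readings in each fraction, and sub-polysomal readings above polysomal ones in each treatment. PHO84 was 3.25-fold lower with DTT in sub-polysomal RNA (log2 -1.70) and 2.51-fold lower in polysomal RNA (-1.33). Quantile scaling moved the sub-polysomal change to -1.17.

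Among the regulators, PHO85 differed from the rest. PHO85, the kinase gene, read 112.5 in the sub-polysomal and 183.2 in the polysomal control pool, and 244.8 and 236.5 in the DTT pools. The control sub-polysomal reading was the low one, and both DTT readings lay above both control readings. Its sub-polysomal change was 2.03-fold higher (log2 1.02), just past the limit, and its polysomal change 1.26-fold higher (0.34). Under loess scaling the sub-polysomal change was 0.94 and no longer past 2-fold, so that 2 members were lower and 0 higher there. With the floor at the 60th percentile it was 0.95.

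PHO4, the transcription factor gene, read 123.1 in the sub-polysomal and 83.4 in the polysomal control pool, and 91.7 and 71.5 in the DTT pools, with changes of -0.53 in sub-polysomal and -0.25 in polysomal RNA. PHO81, the kinase inhibitor gene, read 156.4, 164.9, 170.7 and 143.3 in the same order, with changes of 0.024 and -0.23. Neither gene was past 2-fold in any of the comparisons, and the largest reading of PHO81 was 1.19 times its smallest. Quantile and loess scaling turned the sign of the sub-polysomal change of PHO81, as did the floor at the 60th percentile, and scaling to the hybridisation controls turned that of the polysomal one. PHO81 is itself a target of Pho4, like PHO5 and PHO84.

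How the transcripts were spread over the gradient differed between the members. In control cells, 1 of the 6 members was past 2-fold, PHO84, whose log2 ratio (polysomal over sub-polysomal) was -1.21. Of all measured genes 6.5% were 2-fold lower and 7.11% 2-fold higher in that ratio. PHO85 (0.87), PHO3 (0.46) and PHO81 (0.25) lay above 0, and PHO5 (-0.20) and PHO4 (-0.39) below it. In this order PHO84 was 0.82 below PHO4 and PHO5 was 0.45 below PHO81, and the other gaps were smaller than the probe set SD of 0.41. That SD is for a single gene's value, and a gap between genes has a larger spread, so the order was not tested. With no floor PHO84 was at -0.88 and PHO85 at 1.21, so that the called member changed, and the sign of PHO5 turned there and with a pseudocount.

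In DTT-treated cells the member past 2-fold was PHO5, at -1.39, where 3.8% of all genes were 2-fold lower and 4.79% higher. PHO84 stood at -0.84 and PHO3 at -0.83, followed by PHO4 (-0.12), PHO81 (-0.011) and PHO85 (0.19). The gap from PHO4 to PHO3 was 0.72 and that from PHO84 to PHO5 0.55, and the other gaps were smaller than the probe set SD of 0.32. Here too that SD is for a single gene's value and not for a gap. PHO3 and PHO81 were above 0 in control and below 0 in treated cells, as were 9.07% of all genes. PHO84 was also past 2-fold on the deposited scale (-1.08) and under quantile (-1.36) and loess scaling (-1.28), and PHO3 on the deposited scale (-1.07). The signs of PHO4, PHO81 and PHO85 turned under at least 1 other scaling.

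**Figure D3:**
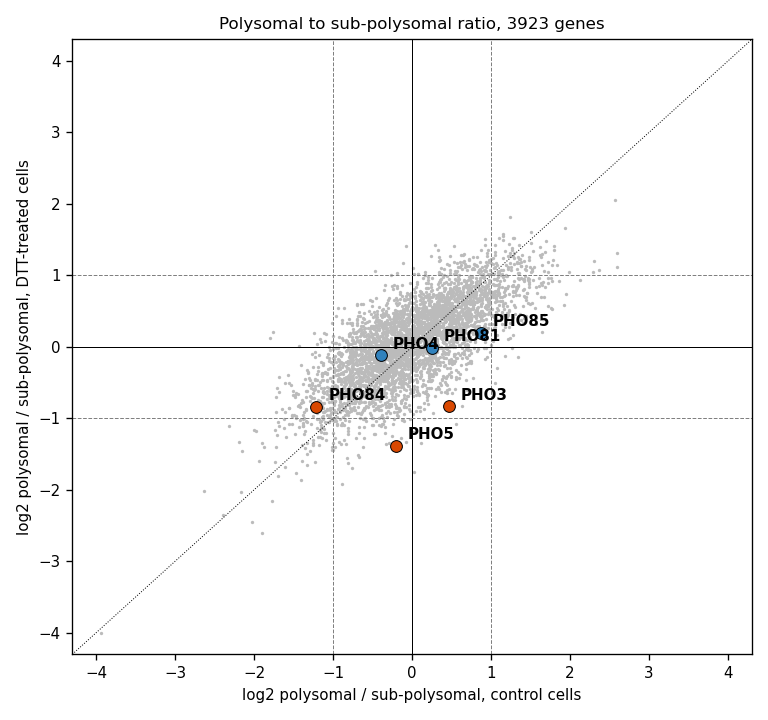
Polysomal to sub-polysomal ratio (log2, each array centred on its own median) in control cells on the x axis and DTT-treated cells on the y axis, 1 grey point per measured gene, members in colour (orange for the phosphatases and the transporter, blue for the regulators), dashed lines at 2-fold and the dotted line at equal ratios. PHO3 (0.46 and -0.83) and PHO5 (-0.20 and -1.39) lie below the dotted line, and PHO84 (-1.21 and -0.84) lies above it.

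The change in polysome association, the DTT ratio minus the control ratio, was past 2-fold for both phosphatases with a value of their own. It equals the polysomal change with DTT minus the sub-polysomal one. It was -1.29 for PHO3 and -1.18 for PHO5, 2.99 and 2.73 times the probe set SD. For PHO84 it was 0.37, a value that turned to -0.11 under quantile scaling, and for the joint reading of PHO11 and PHO12 it was -0.21, within the spread between probe sets. The 2 of 6 members past 2-fold were both lower, where 1.45% of all genes were 2-fold lower and 1.99% higher. Both were also 2-fold lower in polysomal RNA, as were 0.306% of all genes on both counts. The regulators lay between -0.68 (PHO85) and 0.27 (PHO4).

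Quantile scaling ended both calls in polysome association, with -0.86 for PHO3 and -0.94 for PHO5. A pseudocount of 16 ended that of PHO5 (-0.95). PHO3 ranked 13th lowest and PHO5 29th lowest of the 3923 genes. Polysome association follows from both changes with DTT, so limits on all of them are not independent. PHO3 was the 1 gene, 0.0255% of those measured, that was at least 2-fold lower with DTT in both fractions and in polysome association. On the deposited scale and under loess scaling the adenine deaminase gene AAH1 and the pentose phosphate gene RKI1 joined it, and under quantile scaling it was not in that group, which then held RAS1. With the floor at the 20th percentile the group had 3 genes and with no floor 32, and it had 22 at a 1.5-fold limit and 0 at a 3-fold limit. The control sub-polysomal array enters the polysome association of both PHO3 and PHO5 (readings of 268.3 and 121.9), and its part in these values was not tested.

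**Figure D4:**
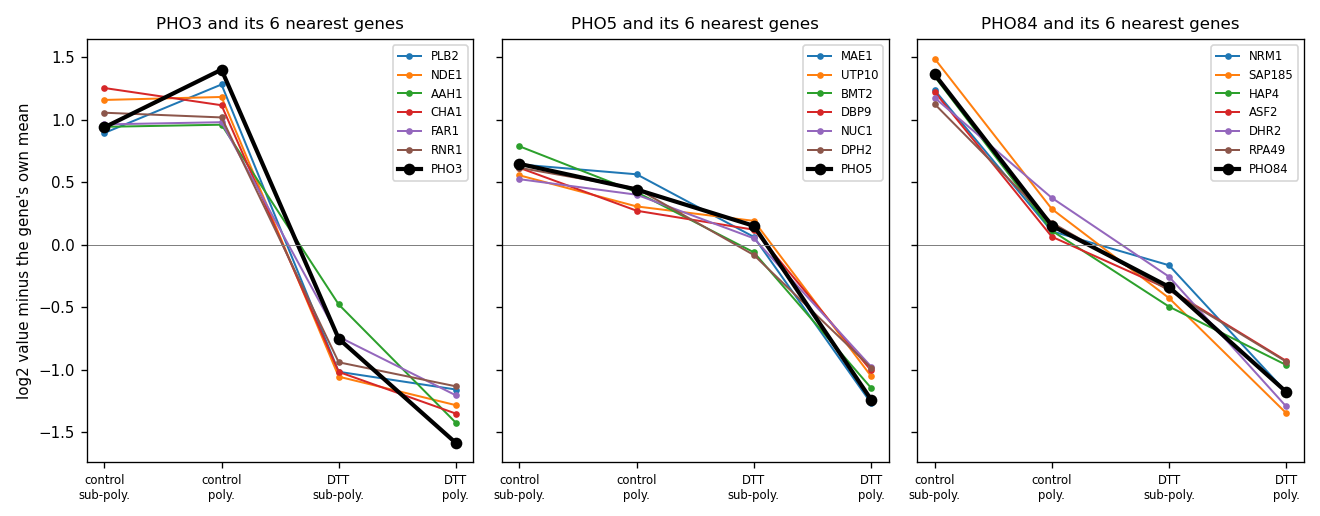
Log2 value minus the gene's own mean over the 4 arrays (y axis) on each array (x axis), for PHO3, PHO5 and PHO84 in black and for the 6 genes nearest to each in colour; lines join the arrays of 1 gene and do not stand for time. In control polysomal RNA PHO3 lies above its 6 neighbours and in DTT polysomal RNA below them, and the neighbours of the 3 genes are different genes.

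The genes with the pattern most like PHO3 were found by the Euclidean distance between log2 values over the 4 arrays, each gene first centred on its own mean. The nearest of 3922 others was PLB2, for a secreted phospholipase, at a distance of 0.52. The mitochondrial NADH dehydrogenase gene NDE1 (0.53), AAH1 (0.54), the serine and threonine deaminase gene CHA1 (0.55), FAR1, for the inhibitor that arrests the cell cycle during mating (0.57), and RNR1, of deoxynucleotide synthesis (0.63), followed. Of these, AAH1 had a change in polysome association near that of PHO3 (-0.96), and the other 5 lay between -0.53 and -0.15. With 4 arrays such nearness describes these arrays alone.

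The other members were not among the genes nearest to PHO3. PHO5 ranked 141st and PHO84 160th by that distance, PHO4 1146th, PHO81 1723rd and PHO85 3514th. For PHO5 the nearest gene was MAE1, for malic enzyme (0.15), and for PHO84 NRM1, for a corepressor of G1 genes (0.22), both looked up after the values of PHO3 were known.

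Other genes of the pathway came from lists set up with earlier results of these data known. The shares of all measured genes that stand beside every count over these lists are 11.1% lower and 5.68% higher for the sub-polysomal change, and 7.04% lower and 4.33% higher for the polysomal one. Of 12 genes listed as other phosphate carriers and their helpers, 10 were measured, and all 10 were below 0 in both fractions, as were 48.8% of all genes. Whether each listed gene, ERS1 among them, acts on phosphate was not checked. XPT1 was at least 2-fold lower in sub-polysomal RNA, and PHO90 and XPT1 were in polysomal RNA. Their median change was -0.58 for the sub-polysomal and -0.49 for the polysomal pools. Under loess scaling 9 of 10 were below 0 in each fraction, and with hybridisation control scaling 8 of 10 in polysomal RNA.

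PHO90, a low-affinity phosphate transporter gene, read 693.7 in the sub-polysomal and 449.2 in the polysomal control pool, and 396.0 and 185.5 in the DTT pools, with changes of -0.91 and -1.31. XPT1 had -1.01 and -1.17, of which the first was -0.91 as deposited and -0.94 under hybridisation control scaling, and the second -0.93 under the latter. It encodes a xanthine phosphoribosyltransferase of purine salvage and no phosphate carrier, and it stayed in the counts because the list held it. The other low-affinity transporter gene PHO87 had -0.85 and -0.29 and the vacuolar transporter gene PHO91 -0.57 and -0.43. PHO89, the sodium-dependent phosphate transporter gene, read 25.7 and 26.1 in the control pools and 63.4 and 47.6 in the DTT pools, and was below the floor on the control sub-polysomal array.

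**Figure D5:**
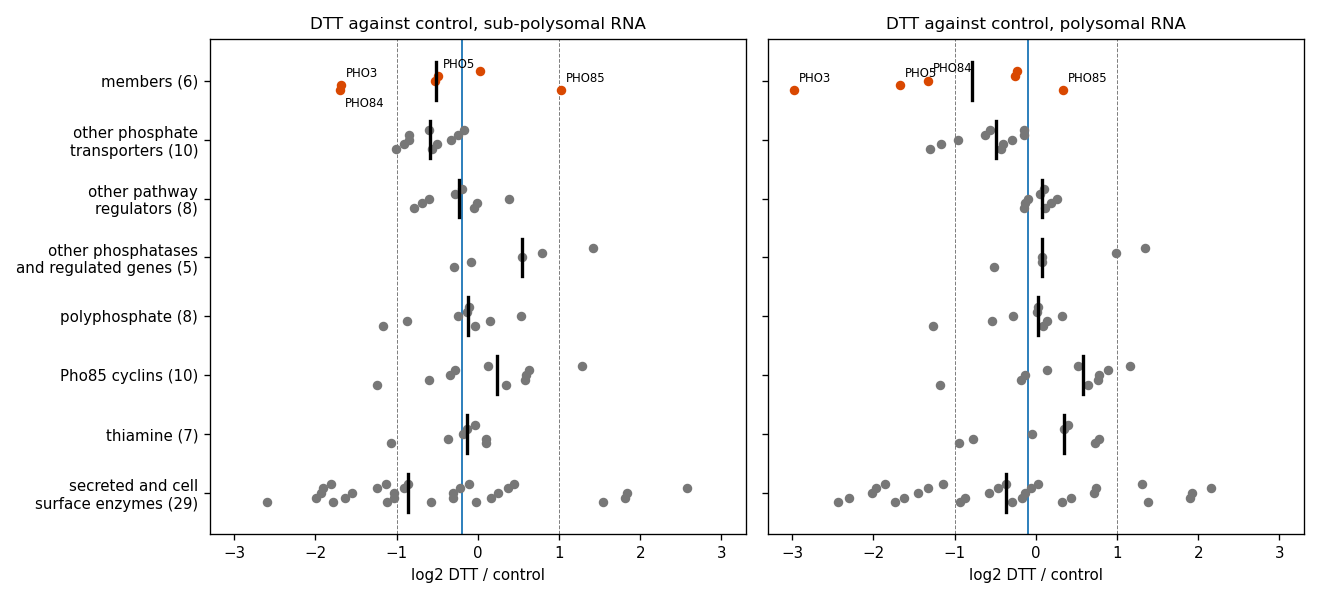
Change with DTT (log2, x axis) in sub-polysomal RNA (left) and polysomal RNA (right) for the members in orange and for each list of related genes in grey, 1 point per measured gene, with the number measured in brackets, the list's median as a black bar, the median of all genes as a blue line and dashed lines at 2-fold. The 10 measured genes of the list of other phosphate transporters and helpers, XPT1 included, lie below 0, and none of the 8 other regulators reaches a dashed line.

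Of 13 further regulators of the pathway 8 were measured, and 0 were past 2-fold with DTT in either fraction, with medians of -0.24 and 0.073, where 11.1% and 7.04% of all genes were 2-fold lower and 5.68% and 4.33% higher. Their changes ran from -0.79 to 0.38 in sub-polysomal and from -0.14 to 0.26 in polysomal RNA. PHO80, the cyclin gene of the phosphate pathway, had changes of -0.60 and -0.13. The latter turned positive under quantile, loess and hybridisation control scaling. PHO2, for the partner of Pho4, was below the floor on all 4 arrays. SPL2, for an inhibitor of low-affinity phosphate uptake and a Pho4 target, read 46.4 and 23.6 in the control pools and 24.1 and 12.5 in the DTT pools, the last of these below the floor.

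Among 10 other phosphatases and phosphate-regulated genes, 5 were measured. Of the rest, DIA3 read 24 and 3 in the control pools, below the floor, and 42.2 and 29.7 in the DTT pools, above it. PHM6 read 42.4 and 15.5 in the control pools and 16.7 and 7.9 in the DTT pools, and PHM7 31.9, 17.1, 18.2 and 8.3. Both passed the floor only on the control sub-polysomal array. PHM8 passed it on 3 arrays and CTF19 on 0. GPP2 (also called HOR2), for a glycerol phosphatase, was 2-fold higher in both fractions (1.41 and 1.34), and GDE1, which releases glycerophosphate from phospholipid breakdown products, had -0.084 and 0.98 and a change in polysome association of 1.07, which was 0.995 as deposited and 0.95 under quantile scaling. PHO8, the vacuolar alkaline phosphatase gene, had 0.55 and 0.072. All 8 genes of polyphosphate synthesis and breakdown were measured, with medians of -0.12 and 0.022, and 1 was past 2-fold, VTC5 (-1.17 and -1.27), a subunit of the polyphosphate polymerase complex. The brightest of its 4 probe sets read 93.2 and 85.8 in the control pools and 44.7 and 34.3 in the DTT pools. Under loess scaling 0 of the 8 were past 2-fold in sub-polysomal RNA.

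The cyclins that steer Pho85 to its targets differed among themselves. All 10, PHO80 among them, were measured, with medians of 0.23 in sub-polysomal and 0.58 in polysomal RNA, 1 past 2-fold in each direction in each fraction. Under loess scaling the sub-polysomal change of PCL9 was -0.95, with 2 higher and 0 lower. In polysomal RNA quantile scaling left 0 past 2-fold, and hybridisation control scaling gave 4 higher and 0 lower. PCL9 was lower (-1.24 and -1.18), PCL5, the cyclin for Gcn4 turnover, was higher in sub-polysomal RNA (1.28 and 0.78), and PCL1, a G1 cyclin, was higher in polysomal RNA (0.59 and 1.16). CLG1 had a change in polysome association of 1.11. In control cells all 10 had a polysomal to sub-polysomal ratio below 0, as did 2021 of all 3923 measured genes. Their median ratio was -0.74. Under loess scaling 9 of 10 were below 0, and under quantile scaling 8 of 10.

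Since PHO3 is repressed by thiamine, genes of thiamine synthesis and uptake were read too. Of 23 such genes, 15 have a probe set of their own and 7 were measured. Their medians were -0.13 in sub-polysomal RNA, which turned positive under loess scaling, and 0.34 in polysomal RNA. THI7, the thiamine transporter gene, was past 2-fold in sub-polysomal RNA (-1.07, but -0.97 as deposited) and had -0.95 in polysomal RNA. THI4, of thiamine ring synthesis, read 23.3 and 7.6 in the control pools, below the floor, and 26.1 and 17.7 in the DTT pools, above it.

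PHO3 and PHO5 can also be set beside other secreted and cell surface enzymes and wall proteins. All 29 genes of that list were measured. In sub-polysomal RNA 13 were at least 2-fold lower and 4 higher, where 11.1% and 5.68% of all genes were. In polysomal RNA 10 were lower and 5 higher, where 7.04% and 4.33% of all genes were. The median of -0.86 in sub-polysomal RNA was -0.048 under quantile scaling, with 10 lower and 4 higher, and -0.29 under loess scaling, with 8 and 4. The polysomal median was -0.36, but -0.18 under quantile, -0.10 under loess and -0.12 under hybridisation control scaling. Under these 3 scalings 10, 9 and 9 were 2-fold lower and 5 higher in each. By the mean size of both changes the first 4 were the cell separation gene EGT2 (-2.59 and -2.31), PLB2 (-1.91 and -2.44), the yapsin protease gene YPS3 (1.81 and 2.16) and the glucanase gene DSE4 (-1.99 and -1.96). In polysome association 21 of the 29 were above 0, as were 2228 of all 3923 measured genes. The list's median was 0.085 and that of all genes 0.081. As deposited 16 of the 29 were above 0, under loess scaling 15, under quantile scaling 14 and under hybridisation control scaling 24. Of the list, 3 were 2-fold higher and 1 lower, where 1.99% and 1.45% of all genes were. The higher ones were the glucanase gene EXG2 (1.34), the wall protein gene CCW12 (1.06) and the phospholipase gene PLB1 (1.02). CCW12 turned to -0.20 under quantile scaling and was 0.30 under loess scaling, and PLB1 was 0.95 as deposited and 0.92 under quantile scaling. The lower one was the cell wall transglycosylase gene CRH1 (-1.27), whose RNA was higher with DTT in both fractions (2.57 and 1.30).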

How the data were processed

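RNA of 4 gradient pools was read on 1 Affymetrix YG_S98 array each, the chip type being per the file headers of the run sheets. The authors deposited 1 linear intensity for each probe set, scaled per array: the mean after 2% is trimmed from each end is 100.1 on each. The sources used here do not give the summary algorithm. No column lacked a sample.

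Of 9335 probe sets, 6504 name 1 gene, 328 several and 2443 none besides 60 controls; names come from the platform table and assembly R64. Intensities above the floor on all 4 arrays were taken to log2 and centred on the median of 4720 measured probe sets, and probe sets of a gene were averaged (Python 3.11.15, pandas 2.3.3; loess by statsmodels 0.14.6). This was tested on simulated data, with equal changes in both fractions placed on bright probe sets only. Readings near the floor and the finding of a true change in polysome association were therefore not tested. The number of arrays limits precision: with 1 per group no p-value was computed and the 2-fold limit was used.

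The members, the gene lists, the 2-fold limit and the alternatives were chosen with earlier results of these data known. Named are all members, the 6 genes nearest to PHO3, the treatment checks KAR2 and HAC1, PHO80, PHO2, PHO8, PHO87, PHO89, PHO90 and PHO91, and, per list, up to 4 genes past 2-fold in a change with DTT or in polysome association with the largest mean change. Alternatives were other floors, limits and scalings, a pseudocount of 16, plain probe sets only and the brightest probe set. TIM12, PBY1, MAE1, NRM1, YGL138C, RKI1, RAS1, SPL2, DIA3, PHM6, PHM7, PHM8, CTF19, CRH1, EXG2, CCW12, PLB1 and THI4 were added after their values were seen. No sequence is printed, since no sequence table was used here.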

Additional observations from a re-analysis of the deposited data

Results flagged for a closer look

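For 2 of the 6 members a difference ran in opposite directions in both treatments or both fractions. The polysomal to sub-polysomal ratio of PHO3 was 0.46 in control and -0.83 in DTT-treated cells, and that of PHO81 was 0.25 and -0.011. With DTT, the PHO81 difference was 0.024 in the sub-polysomal pool and -0.23 in the polysomal one. With 1 array per group these differences were not tested, and those of PHO81 are smaller than the spread between probe sets.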

How the results depend on the processing

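No paired analysis was possible because each group holds 1 array. Of 302 values of single members under other settings, 288 moved by less than the SD between probe sets, 14 moved by more and 0 called values changed sign. Values that were not called changed sign in 17 cases. Each member is read by 1 plain probe set. Keeping plain probe sets only or the brightest probe set therefore could not move any value or count of members. Of 62 counts of members past 2-fold, 46 stayed within 1.5 times the reported one. With the floor at the 60th percentile, which leaves out PHO3 and PHO5, the count was 1 (in place of 3) for the change with DTT in sub-polysomal and in polysomal RNA and 0 (in place of 2) for polysome association. For the ratio in control cells, reported as 1, it was 2 with the floor at the 20th percentile, under hybridisation control scaling and at a 1.5-fold limit, and 0 at a 3-fold limit; with no floor it was 1, PHO85 in place of PHO84. For the ratio in DTT-treated cells, reported as 1, it was 3 as deposited and at a 1.5-fold limit, 2 under quantile and loess scaling, and 0 with the pseudocount and at a 3-fold limit. For polysome association, reported as 2, it was 1 with the pseudocount and 0 under quantile scaling and at a 3-fold limit. Without the control sub-polysomal array, an alternative chosen after seeing the data, the counts were 3 for the polysomal change and 1 for the ratio in DTT-treated cells, as reported. Neither of these comparisons uses that array, so leaving it out could act only through the probe sets counted as measured. The other comparisons need that array and could not be made without it.

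Scaling also moved the background. The median polysomal change of all genes, -0.10, was 0.14 under hybridisation control scaling, with 4.18% of genes 2-fold lower and 7.44% higher, and the median DTT ratio, 0.080, was 0.43 there and -0.16 as deposited. Under loess scaling 6.76% of genes were 2-fold lower and 7.27% higher in sub-polysomal RNA. For the phosphatases and PHO84 the reading over the floor was lowest on the DTT polysomal array. There it was 1.89 times the floor for PHO5, 2.31 for the joint PHO11 and PHO12 reading, 2.67 for PHO3 and 25.3 for PHO84. PHO4 was lowest on the DTT sub-polysomal array (4.06), and PHO81 (5.55) and PHO85 (3.99) on the control sub-polysomal array.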
